A study of Saccharomyces cerevisiae with 6 samples.

Results

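The aminoacyl-tRNA synthetases of Saccharomyces cerevisiae were examined in the evolved wine strain P5-EM and in its parent P5. The members were 36 genes named by their function, 22 whose product works in the cytosol and 14 whose product works in mitochondria, out of 5449 genes that the array measured. Each was read from a single probe set, and all 36 lay above background on all 6 arrays. One of the 22 cytosolic members, ARC1, encodes no enzyme but a cofactor of synthetases. Cultures of both strains grew at 12 °C in the synthetic grape must SM1, which is poor in inositol, and were sampled in the exponential phase from 3 independent cultures a strain. P5-EM was isolated from a mixture of wine strains that had been mutagenised with ethyl methanesulfonate and then kept in serial batch culture in that must at 12 °C for 200 generations, while P5 is the commercial wine strain it descends from and had neither treatment. P5-EM is 1 isolate of 1 evolved culture, so its values describe that isolate, and the effects of mutagenesis and of the long culture cannot be told apart.

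A synthetase joins an amino acid to the transfer RNAs that carry it, at the cost of ATP, and the ribosome then uses the charged tRNA. The enzymes fall into classes I and II, which differ in the fold of the catalytic domain. Yeast mitochondria translate a small set of membrane proteins from their own DNA, and the enzymes that charge tRNAs there are encoded in the nucleus and imported. For most amino acids the cytosolic and the mitochondrial enzyme come from separate genes. ALA1, GRS1, HTS1 and VAS1 are the exceptions among the members, since each gives a cytosolic and a mitochondrial form of the enzyme from 1 gene.

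Expression was measured on Affymetrix Yeast Genome 2.0 arrays, and levels are given as the log2 of the normalized hybridisation signal. The fold change of a gene is its mean in P5-EM less its mean in P5 on that scale, with p values from limma adjusted by Benjamini-Hochberg over all 5498 probe sets tested. Genes whose adjusted p did not exceed 0.05 were called, whatever the size of the change. Background was the 95th percentile of the 1747 annotated probe sets not assigned to a single S. cerevisiae gene. It lay at 2.28 to 2.60 over the arrays. The 1747 were taken as probe sets for Schizosaccharomyces pombe, and their species was not checked further. P5-EM replicate 1 stood apart, with r = 0.967 and 0.954 to the other P5-EM arrays across genes, against 0.990 between those and 0.992 to 0.996 among the P5 arrays.

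The cytosolic genes gave higher signals than the mitochondrial ones. The median of the mean log2 level was 9.59 over the 22 cytosolic genes, with a range of 6.75 to 11.64, and 7.58 over the 14 mitochondrial genes, with a range of 6.33 to 9.67. Among all genes measured, whose median was 7.93, these medians stood at the 80.0th and the 43.1st percentile. In P5-EM the medians were 9.72 for the cytosolic and 7.68 for the mitochondrial genes, and in P5 they were 9.44 and 7.30. Only 1 mitochondrial gene, MSK1 for lysine, lay above the cytosolic median, and 2 cytosolic genes, GLN4 for glutamine and GRS2 for glycine, lay below the mitochondrial median. Probe sets bind their targets with unequal strength, so these levels describe the signal of each set, rank no gene against another and were not tested.

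**Figure D1:**
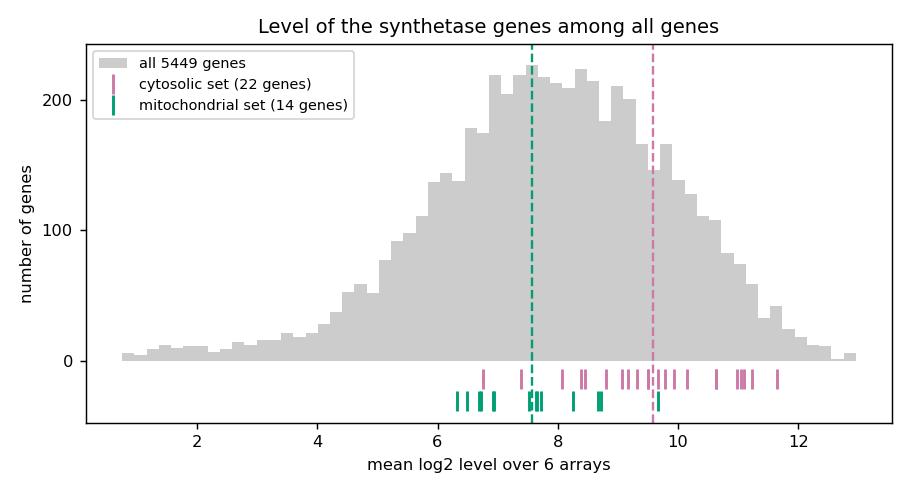
Histogram of the mean log2 level over 6 arrays for all 5449 genes (grey, number of genes on the vertical axis), with a tick for each of the 22 cytosolic and 14 mitochondrial genes below it and a dashed line at each set's median. The cytosolic median, 9.59, lies to the right of the mitochondrial median, 7.58.

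More synthetase genes were higher in P5-EM than lower, in both compartments, and none changed as much as 2-fold. Of the 22 cytosolic genes, 3 rose (MES1, ARC1 and YDR341C), 0 fell and 19 did not pass. Of the 14 mitochondrial genes, 4 rose (MST1, ISM1, MSK1 and MSE1), 0 fell and 10 did not pass. The calls amount to 13.6% of the cytosolic and 28.6% of the mitochondrial genes, beside 6.09% of all probe sets called higher and 7.78% called lower. No member was among the 3.93% of probe sets called at 2-fold or more, since the differences ran from -0.66 to 0.84. At an unadjusted p under 0.05, 13 members were higher and 1 was lower by limma, beside 16.4% and 18% of all probe sets, and by the methods' t-test 14 and 2, beside 14.5% and 14.1%. The median log2 fold change was 0.22 over the cytosolic genes and 0.36 over the mitochondrial genes, beside -0.04 over all genes.

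The 7 calls depended on which arrays were used. All 7 ended when any 1 P5 array or P5-EM replicate 2 was dropped (adjusted p from 0.056 to 0.183, limma). Calls then became few everywhere. Of 5498 probe sets, 140 were called after dropping P5 replicate 1, 0 after replicate 2 or 3, and 99 after P5-EM replicate 2. The loss therefore says little about these 7 genes in particular. With each array dropped in turn, their log2 fold changes stayed positive. They ran from 0.40 to 0.47 for YDR341C, 0.41 to 0.54 for MES1, 0.43 to 0.59 for ARC1 and 0.44 to 0.58 for MSE1. For MSK1, ISM1 and MST1 they ran from 0.54 to 0.70, 0.68 to 0.97 and 0.69 to 1.00. Without P5-EM replicate 1 all 7 kept their calls, and 13 of 36 members were called, beside 26.6% of all probe sets in that setting. Without P5-EM replicate 3, ARC1, YDR341C and MSK1 kept theirs, while CDC60 and WRS1 gained a call as higher and AIM10 as lower. In that setting 6 of 36 members were called, beside 1006 of 5498 probe sets. YDR341C alone passed the methods' t-test adjusted over all probe sets.

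**Figure D2:**
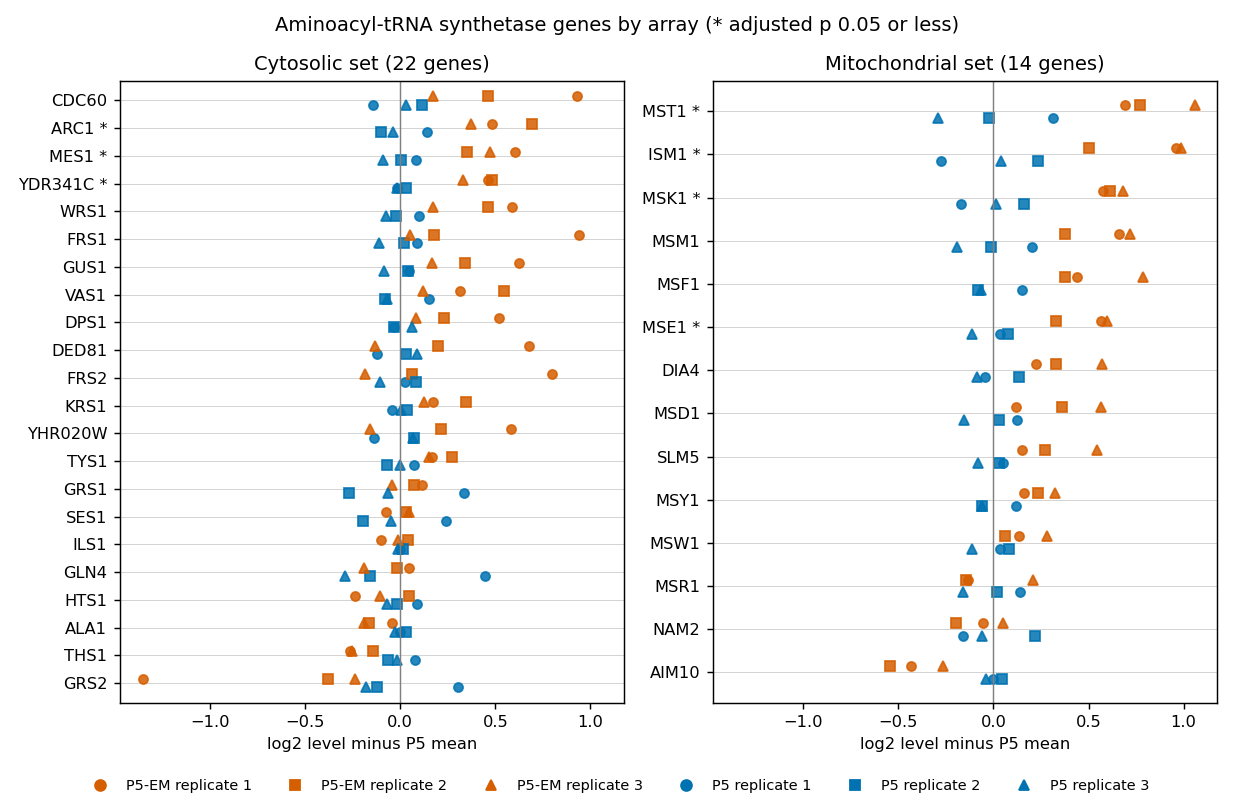
Log2 level minus the P5 mean of the same gene (horizontal axis) for each cytosolic gene (left) and mitochondrial gene (right), ordered by fold change, with P5-EM arrays in orange above P5 arrays in blue and a marker shape for each replicate. Asterisks mark the 7 genes called; for most mitochondrial genes the orange points lie to the right of the blue ones, and GRS2 on P5-EM replicate 1 lies farthest to the left.

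MST1, the mitochondrial threonyl-tRNA synthetase, had the highest fold change of all members. Its log2 level was 7.20, 7.28 and 7.57 on the P5-EM arrays, against 6.83, 6.49 and 6.22 on the P5 arrays. Every P5-EM array lay above every P5 array, and the P5 arrays were spread more widely than the P5-EM arrays. The difference was 0.84 (SE 0.19, 95% interval 0.39 to 1.28, adjusted p = 0.0359, limma), or 1.79-fold.

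ISM1, the mitochondrial isoleucyl-tRNA synthetase, read 8.21, 7.75 and 8.23 in P5-EM and 6.97, 7.48 and 7.29 in P5. P5-EM replicate 2 was the lowest of its strain and still exceeded P5 replicate 2, the highest of the parent. ISM1 rose by 0.81 on the log2 scale (SE 0.19, adjusted p = 0.041, limma), or 1.76-fold. MSK1 charges mitochondrial tRNA with lysine, and its precursor also takes part in the import of a cytosolic lysine tRNA into yeast mitochondria. It stood at 9.93, 9.97 and 10.04 on the P5-EM arrays, which were close to each other, and at 9.19, 9.52 and 9.37 on the P5 arrays. Its rise of 0.62 (SE 0.12) had the lowest adjusted p among the members, 0.0264 (limma). MSE1, the mitochondrial glutamyl-tRNA synthetase, had 6.65, 6.41 and 6.68 in P5-EM and 6.12, 6.16 and 5.97 in P5, again with no overlap, and rose by 0.50 (SE 0.13, adjusted p = 0.0458, limma). It alone of the called members lost its call when limma let the variance follow the signal (adjusted p = 0.0631).

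Further mitochondrial genes were higher in P5-EM without a call, and of these MSM1 and MSF1 lay just outside the threshold. MSM1 for methionine had 7.08, 6.80 and 7.14 in P5-EM and 6.63, 6.41 and 6.23 in P5, a difference of 0.59 (SE 0.15, adjusted p = 0.0508, limma). MSF1 for phenylalanine, an enzyme that works as a single chain unlike its cytosolic counterpart, differed by 0.54 (SE 0.15, adjusted p = 0.0596). DIA4 (serine), MSD1 (aspartate), SLM5 (asparagine), MSY1 (tyrosine) and MSW1 (tryptophan) differed by 0.37, 0.35, 0.32, 0.24 and 0.16, all short of the threshold (adjusted p from 0.108 to 0.37).

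AIM10, a protein that resembles prolyl-tRNA synthetases and sits in mitochondria, was the mitochondrial gene with the most negative difference. Its level was 6.69, 6.58 and 6.86 in P5-EM and 7.12, 7.17 and 7.09 in P5. All P5-EM arrays lay below all P5 arrays, and the difference of -0.42 did not pass (SE 0.12, adjusted p = 0.0602, limma). It passed without P5-EM replicate 1 or 3. NAM2, the mitochondrial leucyl-tRNA synthetase that also helps to splice mitochondrial introns, had 7.70, 7.56 and 7.81 in P5-EM and 7.60, 7.98 and 7.69 in P5. MSR1, the mitochondrial arginyl-tRNA synthetase, had 8.14, 8.12 and 8.48 in P5-EM and 8.41, 8.29 and 8.11 in P5. For NAM2 and MSR1 the strains overlapped, with 95% intervals of -0.41 to 0.27 and -0.38 to 0.33 around -0.07 and -0.02.

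In the cytosol, the calls included MES1 and ARC1, which work in the same complex. ARC1 binds tRNA and holds the methionyl and glutamyl enzymes, MES1 and GUS1, together in the cytosol. Its level was 9.89, 10.10 and 9.78 in P5-EM and 9.54, 9.31 and 9.36 in P5, a rise of 0.52 (SE 0.13, adjusted p = 0.0481, limma), or 1.43-fold. MES1 had 9.16, 8.91 and 9.03 in P5-EM and 8.64, 8.56 and 8.47 in P5, a rise of 0.48 (SE 0.12, adjusted p = 0.0451). For both genes each P5-EM array exceeded each P5 array. GUS1 had 11.49, 11.21 and 11.03 in P5-EM and 10.91, 10.91 and 10.78 in P5, which do not overlap either, and its difference of 0.38 did not pass (SE 0.15, adjusted p = 0.123, limma). YDR341C, the cytosolic arginyl-tRNA synthetase, stood at 11.23, 11.26 and 11.10 in P5-EM and at 10.76, 10.80 and 10.76 in P5. The arrays of each strain were close together, and YDR341C rose by 0.43 (SE 0.11, adjusted p = 0.0437, limma), or 1.34-fold.

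The largest difference in the cytosolic set, that of CDC60, did not pass. CDC60 is the cytosolic leucyl-tRNA synthetase, which also acts as a leucine sensor of the TORC1 pathway. It had 9.74, 9.27 and 8.98 in P5-EM and 8.67, 8.92 and 8.84 in P5, a difference of 0.52 (SE 0.20, adjusted p = 0.127, limma) that was 0.32 without P5-EM replicate 1. On that array the subunits of the cytosolic phenylalanyl-tRNA synthetase, FRS1 and FRS2, also stood high. FRS1 had 9.13, 8.37 and 8.25 in P5-EM and 8.28, 8.22 and 8.08 in P5, and FRS2 had 10.01, 9.27 and 9.02 in P5-EM and 9.24, 9.29 and 9.10 in P5. Their differences of 0.39 and 0.22 became 0.11 and -0.06 without it, a change of sign for FRS2.

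DED81 and YHR020W, the asparaginyl and prolyl enzymes of the cytosol, are neighbours on chromosome VIII and lie on opposite strands. Their levels moved alike from array to array. Their P5-EM levels fell from replicate 1 to replicate 3, as did those of CDC60, FRS1 and FRS2 on other chromosomes. DED81 had 11.18, 10.71 and 10.38 in P5-EM and 10.39, 10.54 and 10.60 in P5, and YHR020W had 11.11, 10.75 and 10.37 in P5-EM and 10.39, 10.60 and 10.60 in P5. In both genes P5-EM replicate 1 was the highest array, P5-EM replicate 3 lay below all P5 arrays, and the differences of 0.25 and 0.21 became 0.03 and 0.03 without P5-EM replicate 1 (adjusted p = 0.43 and 0.472 with all arrays).

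Among the other cytosolic enzymes, WRS1 (tryptophan), DPS1 (aspartate), KRS1 (lysine) and TYS1 (tyrosine) were higher on all P5-EM arrays than on any P5 array, by 0.41, 0.28, 0.21 and 0.20, short of the threshold (adjusted p from 0.098 to 0.232). ILS1 for isoleucine, SES1 for serine and GLN4 for glutamine had differences of -0.02, -0.0002 and -0.05, and their 95% intervals ran from -0.27 to 0.22, -0.34 to 0.34 and -0.55 to 0.44. The interval of ILS1 was the narrowest of these, and its level was 11.55, 11.70 and 11.64 in P5-EM and 11.65, 11.67 and 11.64 in P5. THS1, the cytosolic threonyl-tRNA synthetase, had 9.79, 9.91 and 9.80 in P5-EM and 10.13, 9.99 and 10.04 in P5. The strains did not overlap, with P5-EM on the lower side, and the difference of -0.22 did not pass (SE 0.11, adjusted p = 0.192).

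The 4 genes that serve the cytosol and the mitochondria from 1 locus gave no call. Over all probe sets 6.09% were called higher and 7.78% lower, so no call among 4 genes does not set them apart. VAS1 for valine differed by 0.33 (SE 0.15), GRS1 for glycine by 0.05 (SE 0.17), HTS1 for histidine by -0.10 (SE 0.12) and ALA1 for alanine by -0.13 (SE 0.10), with adjusted p from 0.169 to 0.864. ALA1 alone of the 4 had no overlap between strains, at 9.82, 9.69 and 9.67 in P5-EM and 9.86, 9.89 and 9.83 in P5. The median over the 4 genes was -0.03, and over the other 18 cytosolic genes it was 0.24, a contrast that was not tested.

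GRS1 has a second copy, GRS2, which is scarcely used in ordinary growth and is induced by stresses such as heat and ethanol. GRS2 had 6.36, 7.33 and 7.47 in P5-EM and 8.01, 7.59 and 7.53 in P5, the most negative difference of all members at -0.66 (SE 0.31, 95% interval -1.39 to 0.08, adjusted p = 0.183, limma). P5-EM replicate 1 was the low array, and without it the difference was -0.31. GRS1 had 9.60, 9.55 and 9.44 in P5-EM and 9.82, 9.21 and 9.42 in P5, and P5 replicate 1 was the highest of the 6 arrays for both genes. The copies are similar in sequence, and whether their probes bind the partner's transcript was not tested.

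The balance of the sets differed between the P5-EM arrays. Taken as the median of each gene's level minus its P5 mean, the cytosolic set stood at 0.39, 0.21 and 0.05 on P5-EM replicates 1, 2 and 3, against 0.08, -0.01 and -0.04 on the P5 arrays. The mitochondrial set stood at 0.19, 0.33 and 0.57 on the same P5-EM arrays, against 0.04, 0.04 and -0.08 on the P5 arrays. By this measure the P5-EM arrays stood in opposite order in the sets. Gene by gene, P5-EM replicate 3 was the lowest for 16 of 22 cytosolic genes, while among the 14 mitochondrial genes replicate 2 was the lowest for 8 and replicate 1 for 6. Among all 5449 genes, replicate 1 was the lowest P5-EM array for 2730, replicate 2 for 1255 and replicate 3 for 1464. Over all genes the P5-EM medians were -0.10, -0.01 and 0.02, and the P5 medians 0.02, 0.01 and -0.03. P5-EM replicate 3 was the highest P5-EM array for 14 of 14 mitochondrial genes and for 2 of 22 cytosolic genes, beside 42.1% of all genes. P5-EM replicate 1 was the highest for 12 cytosolic and 0 mitochondrial genes, beside 35.5% of all genes. The part of the state or stage of each culture, of RNA handling and of the arrays in these shifts was not tested.

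**Figure D3:**
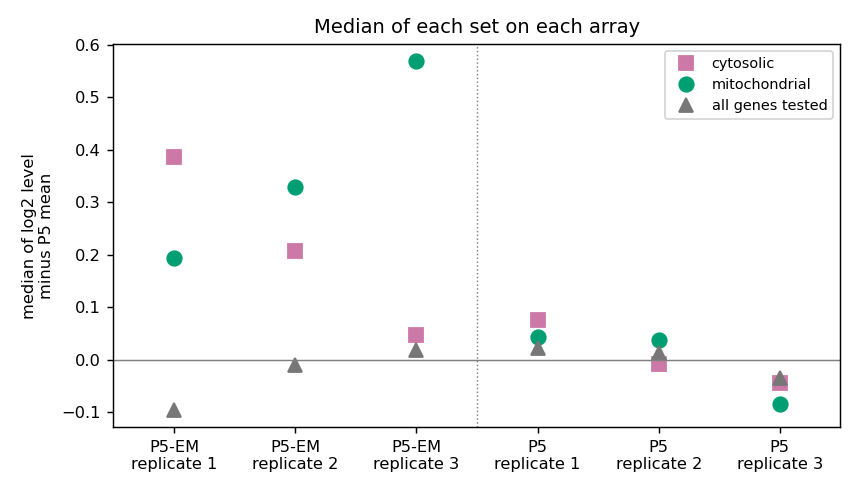
Median over each set of the log2 level minus the P5 mean (vertical axis) on each of the 6 arrays (P5-EM left of the dotted line, P5 right). Squares are the 22 cytosolic genes, circles the 14 mitochondrial genes and triangles all genes; cytosolic medians on P5-EM lie between 0.05 and 0.39 and mitochondrial ones between 0.19 and 0.57, with opposite arrays on top.

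The contrast between the compartments was not larger than the spread between replicates. The cytosolic minus the mitochondrial median log2 fold change was -0.14, with an SD of 0.26 between replicates. It was -0.38 without P5-EM replicate 1 and 0.13 without P5-EM replicate 3, so that 1 array turned its direction. Higher on all P5-EM arrays than on any P5 array were 9 of 22 cytosolic genes and 9 of 14 mitochondrial genes, beside 21.1% of all probe sets. Lower on all P5-EM arrays were 3 cytosolic genes (GRS2, THS1 and ALA1) and 1 mitochondrial gene (AIM10), beside 24.6% of all probe sets.

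Within the cytosolic set the catalytic classes gave unequal medians. The 9 class I genes had a median log2 fold change of 0.38, with 2 calls. Without overlap 6 of them were higher and 0 lower. The 12 class II genes had a median of 0.13, with 0 calls. Without overlap 2 of them were higher and 3 lower (16.7% and 25%), beside 21.1% and 24.6% of all probe sets. Calls higher made up 6.09% of all probe sets. In the mitochondrial set the 7 class I genes had a median of 0.24 and the 7 class II genes one of 0.37, with 2 calls each. By median the classes were thus ordered oppositely in the compartments, and no test was made of this. The ranges of the classes overlapped, at -0.05 to 0.52 (class I) and -0.66 to 0.39 (class II) in the cytosolic set. In the mitochondrial set they were -0.07 to 0.81 and -0.42 to 0.84. Cytosolic class II holds GRS2 and also ALA1, GRS1 and HTS1, which serve both compartments, so the class contrast overlaps with that of the dual genes.

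For 14 amino acids the set holds a cytosolic and a mitochondrial enzyme from separate genes, in 15 pairs since FRS1 and FRS2 both face MSF1. The log2 difference of the pair on an array, cytosolic minus mitochondrial, was compared between strains, which cancels the unequal binding of the probes. The mitochondrial gene had the more positive fold change in 11 pairs and the cytosolic gene in 4. The pair difference did not overlap between strains in 5 of 15 pairs, or 33.3%, beside 46% of all pairs of genes measured. After quantile normalization, an alternative chosen after seeing the data, it was 9 of 15 pairs, or 60%, again beside 46%, so the share lay on either side of the background. With 3 arrays a strain the exact permutation test, two-sided, cannot go below p = 0.10, which these 5 pairs reached (adjusted p = 0.3 over 15 pairs).

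The widest shift was that of threonine. THS1 minus MST1 was 2.59, 2.63 and 2.23 in P5-EM, against 3.30, 3.50 and 3.82 in P5, a shift of -1.06. For isoleucine, ILS1 minus ISM1 was 3.35, 3.95 and 3.41 in P5-EM and 4.68, 4.19 and 4.35 in P5, a shift of -0.84. For these amino acids the mitochondrial gene rose while the cytosolic one did not pass. For lysine, KRS1 itself had 11.30, 11.47 and 11.25 in P5-EM and 11.08, 11.16 and 11.13 in P5, and the shift of KRS1 against MSK1 was -0.41. Leucine and proline were shifted the other way. CDC60 minus NAM2 was 2.04, 1.72 and 1.18 in P5-EM and 1.07, 0.95 and 1.15 in P5, a shift of 0.59. YHR020W minus AIM10 shifted by 0.63, with P5-EM replicate 3 and P5 replicate 3 both at 3.51 after rounding. For arginine YDR341C rose and MSR1 did not pass, and their shift of 0.45 had exact permutation p = 0.2. For methionine and glutamate, where MES1 and MSE1 rose, the partners MSM1 and GUS1 lay on the same side, and the shifts were -0.11 and -0.12 (exact permutation p = 0.4 and 0.9).

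**Figure D4:**
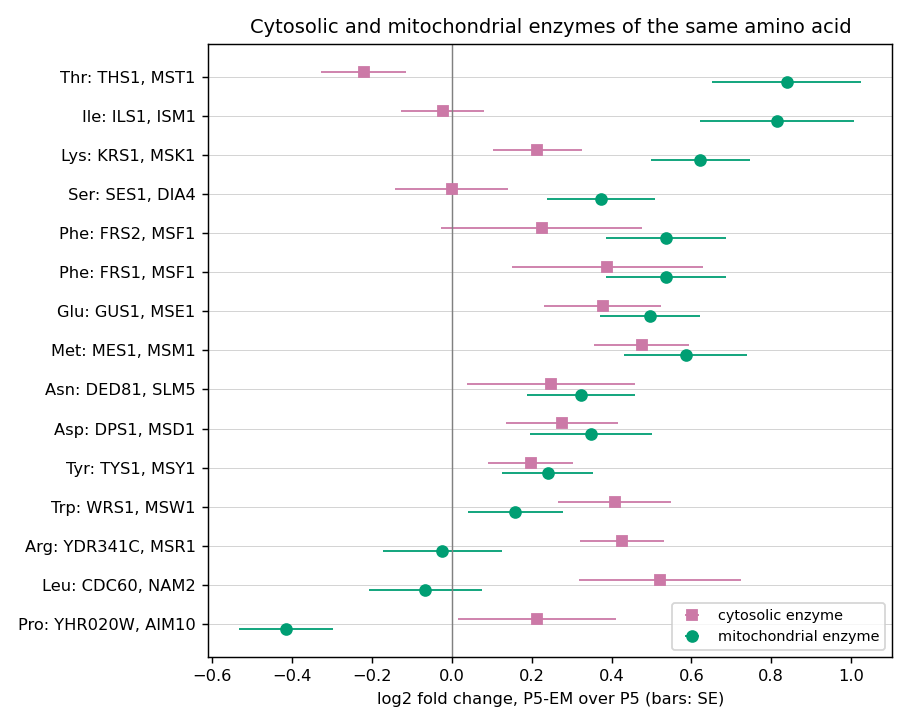
Log2 fold change of P5-EM over P5 (horizontal axis, bars are SE from limma, n = 3 arrays a strain) for the cytosolic (squares) and the mitochondrial enzyme (circles) of each amino acid, ordered by the shift between them. Threonine, isoleucine and lysine at the top have the mitochondrial enzyme farther right, and arginine, leucine and proline at the bottom the cytosolic one.

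Of 14 other genes of tRNA charging, 12 were measured by name. Of these 1 was higher (8.33%, near the 6.09% of all probe sets), 0 were lower and 11 did not pass, with a median log2 fold change of 0.04. FMT1, which formylates the initiator methionyl-tRNA of mitochondria, had 8.56, 8.20 and 8.49 in P5-EM and 7.84, 7.92 and 7.70 in P5, and rose by 0.59 (SE 0.14, adjusted p = 0.04, limma). FMT1 acts on the product of MSM1, which had a difference of 0.59. TUF1, the mitochondrial elongation factor that takes up charged tRNA, had 0.51 (adjusted p = 0.0544), and CCA1, which adds the CCA end to tRNAs of nucleus, cytosol and mitochondria, had -0.36 (adjusted p = 0.0578). HER2, PET112 and GTF1, the subunits of the amidotransferase that makes glutaminyl-tRNA in mitochondria, had -0.07, -0.34 and -0.45, short of the threshold (adjusted p from 0.325 to 0.858).

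Of 6 genes that sense uncharged tRNA or control that sensing, 0 rose, 1 fell and 5 did not pass, beside 6.09% of all probe sets called higher and 7.78% called lower. GIR2, whose product binds Gcn1 and can compete with its activation of Gcn2, had 6.27, 6.33 and 6.50 in P5-EM and 6.84, 6.85 and 6.80 in P5, with all P5-EM arrays below all P5 arrays. It fell by 0.47 (SE 0.11, adjusted p = 0.0411, limma). GCN2, the kinase that binds uncharged tRNA through a domain related to histidyl-tRNA synthetase, and GCN4, the transcription factor downstream of it, had -0.03 and 0.10 (SE 0.16 and 0.12, adjusted p = 0.894 and 0.595). GCN1 had 9.44, 8.71 and 8.42 in P5-EM and 8.26, 8.14 and 8.10 in P5, with P5-EM replicate 1 again the highest, and did not pass (adjusted p = 0.114). The calls of FMT1 and GIR2 ended in the same way as those of the synthetases when a P5 array was left out. Leaving one out kept at most 140 of 5498 probe sets called.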

How the data were processed

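The deposited table holds 1 log2 signal for each probe set and array. To make it, the authors took 25 ng of total RNA a sample through 17 amplification cycles, hybridised 1 array to each, read the scans with GCOS and applied RMA in Partek for background, normalization between arrays and probe summary, without pooling. All 6 columns were used as deposited, since all belong to labelled samples. Of 10928 probe sets, the 5498 annotated to exactly 1 yeast gene entered limma 3.58.1 (lmFit, eBayes; R 4.3.3; no covariate), a step also tested on simulated data. Pairs were tested by exact permutation in SciPy 1.17.1. The number of arrays, 3 a strain, limits the precision. The members and gene lists were chosen with earlier results of these data known. Array values are given for called members, the 3 largest differences in each direction and set, GRS1 and GRS2, and pairs with a call. Array values of DED81, YHR020W, FRS1, FRS2 and GCN1, and the uncalled genes named in both lists, were added after their values were seen. YNL247W and TEF1 had no probe set under their own name, and TEF2 is read by 1 that may bind TEF1 too. Promoter motifs were not analysed here. Alternatives were other normalizations, tests, filters and weights, a replicate block and each array left out.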

Additional observations from a re-analysis of the deposited data

How the results depend on the processing

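The 7 called members kept their sign under all 14 alternatives, and 8 uncalled members changed sign under at least 1. Of these, FRS2 had a difference of 0.22, as large as the cytosolic median, and turned without P5-EM replicate 1. The numbers of cytosolic and of mitochondrial genes called higher ranged from 0 to 4 and from 0 to 9 with each array left out in turn, and 0 to 1 mitochondrial genes were lower. In these settings 0 to 669 of all 5498 probe sets were called higher and 0 to 793 lower. The 9 arose without P5-EM replicate 1, where 12.2% of all probe sets were called higher. The methods' t-test gave 1 cytosolic and 0 mitochondrial genes higher, beside 1.11% of all probe sets higher and 1.86% lower. With the replicate block 0 members were called, 0 in either set, beside 1.51% of all probe sets higher and 2.27% lower. Same-numbered arrays did not deviate together (r = -0.03, -0.28 and -0.02), and differently numbered ones gave r from -0.11 to 0.24. These values give no sign of a pairing by number, which 3 arrays a strain cannot exclude. Quantile normalization gave 7 mitochondrial genes higher, beside 8.99% of all probe sets, and, chosen after seeing the data, 9 pairs without overlap in place of 5, beside 46% of all gene pairs both times. The intensity trend left 3 mitochondrial genes higher, without MSE1, beside 6.2% of all probe sets higher and 7.53% lower. Array weights, whose estimation stopped before it converged, gave 10 higher and 2 lower in each set. They called 3222 probe sets in all (28.8% higher and 29.8% lower), against 763 as reported. All counts are of the data as deposited unless named, and the cause of these changes was not tested.

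The cytosolic median log2 fold change lay between 0.0765 and 0.39 with an array left out, the mitochondrial one between 0.26 and 0.46, and their difference between -0.38 and 0.13. Of the charging partners, 0 to 2 were higher and 0 to 1 lower with an array left out. Array weights gave 4 higher and 2 lower, the methods' t-test 0 and 1, the replicate block 0 higher, and the intensity trend and quantile normalization 2 higher. Of the genes sensing uncharged tRNA, 0 to 1 were higher and 0 to 1 lower with an array left out. Array weights gave 3 higher, and the intensity trend, the methods' t-test, quantile normalization and the replicate block 0 lower. The counts in both lists stand beside the shares of all probe sets given above for each setting. After quantile normalization 8.99% were also called lower.

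The sign changed as follows. GLN4 had 0.10 with array weights, 0.0149 after quantile normalization and -0.20 to 0.17 with an array left out. SES1 had 0.10 with array weights, 0.0089 after median centring and -0.10 to 0.12 with an array left out. HTS1 and ILS1 had 0.0652 and 0.0397 with array weights. With an array left out, ILS1 lay between -0.0569 and 0.0152, FRS2 between -0.0625 and 0.43, GRS1 between -0.0886 and 0.21, MSR1 between -0.14 and 0.0459 and NAM2 between -0.15 and 0.0435.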
